A study of Mus musculus with 7 samples.

Results

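A set of 10 genes that modify or crosslink collagen was followed in cancer-associated fibroblasts (CAFs) of mouse pancreatic tumors: P4ha1, P4ha2, P4ha3, Plod1, Plod2, Plod3, Lox, Loxl1, Loxl2 and Serpinh1. They were chosen by symbol, as a set of enzymes and their chaperone, and all 10 were among the 12771 genes counted. The tumors were raised by injecting 20000 KPC cells, a mouse pancreatic ductal adenocarcinoma line, into the pancreas of male C57BL/6 J mice of 8 weeks. The KPC cells carried a lentiviral pLKO.1 vector under puromycin selection, with a hairpin that silences Brca2 in the shBrca2 group and a non-targeting one in the shControl group, so the silenced gene belonged to the cancer cells and not to the fibroblasts that were sequenced. After 2 to 3 weeks, podoplanin-positive cells that lacked EpCAM, CD31 and CD45 were sorted, about 10000 CAFs a sample, and their poly(A) RNA was read at the 3' end of transcripts by MARS-seq. The shControl group had 3 libraries, replicates 1, 2 and 4, and the shBrca2 group had 4, replicates 1 to 4, with 1 line of cells and 1 hairpin target behind each group.

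Fibrillar collagen is modified before and after it leaves the cell. In the endoplasmic reticulum (ER), prolyl 4-hydroxylases add hydroxyl groups that keep the collagen helix stable at body temperature, lysyl hydroxylases prepare lysines for sugar attachment and crosslinks, and Serpinh1, the collagen chaperone HSP47, binds the folded helix. After secretion, lysyl oxidases convert lysines and hydroxylysines to aldehydes that react into covalent crosslinks, and so stiffen the matrix. The hydroxylases use oxygen, iron, ascorbate and 2-oxoglutarate, and several of these genes are known targets of the hypoxia-inducible factors (HIF).

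Promoters of P4ha1 and P4ha2, hydroxylase genes often described as HIF targets, are shown beside that of Ero1a, a neighbour of theirs in ER function that rose in these CAFs, because these genes share the core letters of the HIF binding element but not the same values below. The sequences are from RefSeq on GRCm38.p6, read 5' to 3' on the gene's own strand, and cover bases 250 to 51 before the start used in the promoter table. For P4ha1 that start lies inside the gene's annotated span, so its stretch was ended at base 100 before it, where the outermost transcript begins. Capitals mark ACGTG or GCGTG on either strand (CACGT and CACGC on the reverse). They lie at chr10:59323046-59323196 (plus strand) for P4ha1, chr11:54100674-54100873 (plus strand) for P4ha2 and chr14:45318623-45318822 (minus strand) for Ero1a.
P4ha1: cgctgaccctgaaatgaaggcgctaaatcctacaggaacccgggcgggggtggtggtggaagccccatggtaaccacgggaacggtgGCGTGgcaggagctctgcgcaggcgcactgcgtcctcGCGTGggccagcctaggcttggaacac
P4ha2: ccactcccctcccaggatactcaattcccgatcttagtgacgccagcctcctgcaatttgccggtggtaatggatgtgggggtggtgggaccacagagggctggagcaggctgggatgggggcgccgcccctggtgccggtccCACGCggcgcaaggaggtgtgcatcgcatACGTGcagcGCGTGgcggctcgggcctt
Ero1a: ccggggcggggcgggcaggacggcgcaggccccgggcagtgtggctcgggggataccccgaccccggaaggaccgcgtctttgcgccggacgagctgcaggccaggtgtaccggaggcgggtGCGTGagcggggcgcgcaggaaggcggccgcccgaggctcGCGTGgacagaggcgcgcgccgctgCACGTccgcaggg
P4ha1 held 2 such matches in this stretch, P4ha2 held 3 and Ero1a held 3. In the full promoter window, from 250 bases before to 50 after the start, 43.8% of all 32851 RefSeq promoters held at least 1 match, so the letters alone are common. Of the 10 collagen genes, 6 had a promoter in the table used, and 5 of these 6 held a match: P4ha1 (3), P4ha2 (4), Plod1 (2), Plod3 (4) and Serpinh1 (1), while P4ha3 had none. A match was held by 46.7% of all genes with a promoter and by 19 of 19 genes of the oxygen sensing list described below. Promoters of Plod2, Lox, Loxl1 and Loxl2 were not analysed here.

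Loss of Brca2 in the cancer cells was not accompanied by a called change in any of the 10 genes. By DESeq2's likelihood ratio test, 0 of 10 were called, where a call needed a Benjamini-Hochberg adjusted p under 0.1 over all genes, an absolute log2 fold change over 0.5 and a mean normalized count over 5. Of all 12768 genes tested, 9.04% were called, 3.77% higher and 5.27% lower in shBrca2. Only 1 of the 10, Loxl1, had an unadjusted p under 0.05, a level reached by 17.7% of all genes. The edgeR quasi-likelihood test likewise called 0 of 10 and gave Loxl1 alone an unadjusted p under 0.05. The groups overlapped for 10 of 10, and they did not overlap for 17.1% of all genes tested. With shares this low over all genes, a count of 0 in only 10 genes does not set these genes apart. The median log2 fold change of the 10 genes was -0.10, beside 0.01 for all genes, and 8 of 10 estimates were negative. No 95% interval of a member reached a 2-fold change in either direction. In these bulk libraries a lower count from fewer cells of a type and from less RNA per cell cannot be told apart. By the study's description each library came from its own mouse, although the labels do not name the animals, and p-values measure the spread between these libraries.

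**Figure D1:**
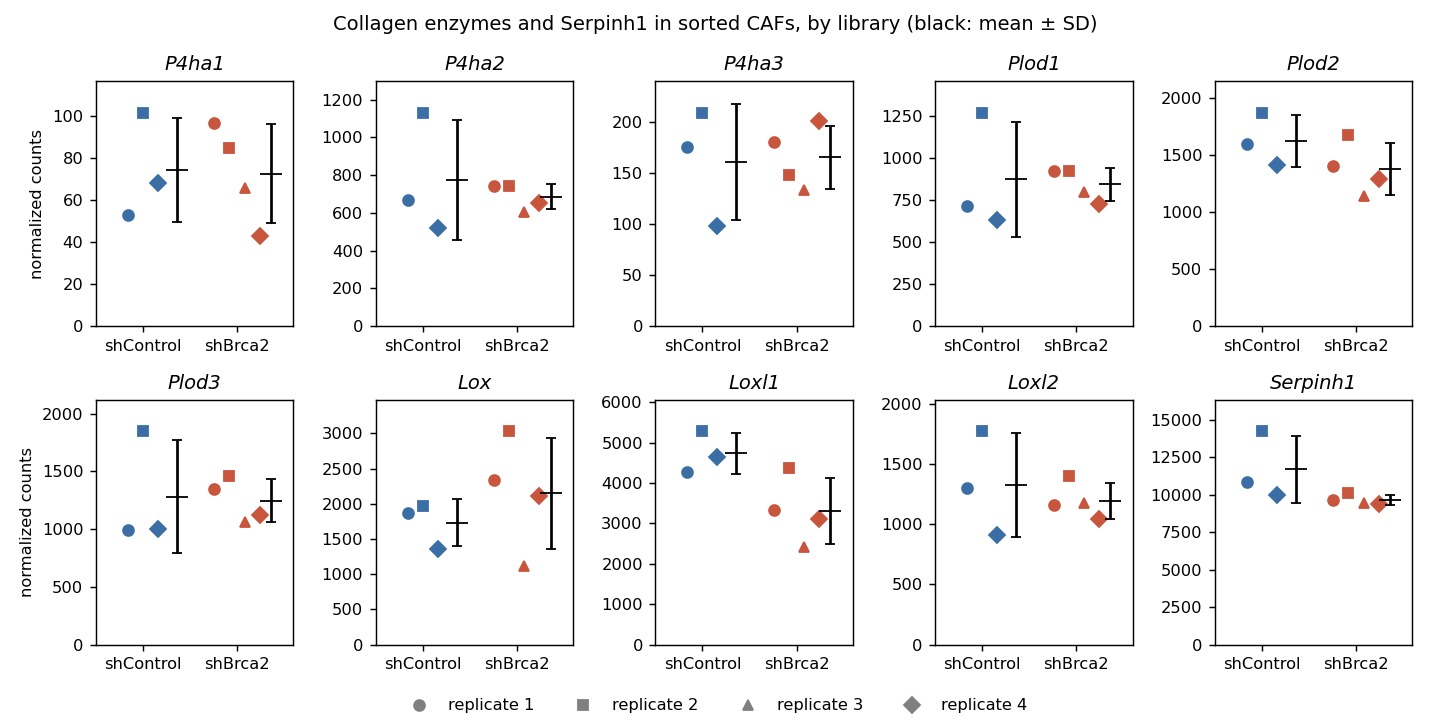
Normalized counts (linear axes from 0) of the 10 collagen genes in the 3 shControl (blue) and 4 shBrca2 (red) libraries, with marker shape for the replicate number and black bars for mean ± SD. The blue square, shControl replicate 2, is the highest library in 9 of 10 panels, and the groups overlap in all 10.

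Library totals ran from 1898679 to 5990579 counts, a 3.16-fold range, and the groups' totals overlapped. All 10 CAF markers examined were detected, and their summed normalized counts were 125620 to 144438 in shControl and 100464 to 120032 in shBrca2, with Dcn and Lum called lower. Epithelial markers moved the other way: 5 of 7 were called higher, and their sums were 387 to 1142 in shControl and 1439 to 2040 in shBrca2, while Epcam was not among the genes counted. Summed pericyte markers were 805 to 1432 against 1359 to 1813 (2 of 9 higher), summed mesothelial markers 1198 to 3697 against 2782 to 3487 (1 of 9 higher), summed immune markers 302 to 327 against 379 to 411 (2 of 6 higher, 2 lower), summed acinar markers 162 to 310 against 105 to 173 (1 of 9 higher, 4 lower) and summed endothelial markers 85.4 to 144 against 109 to 164 (0 of 6 called by DESeq2, 2 with an unadjusted p under 0.05, and 1 called by edgeR). The mesothelial gene called was Krt19, which is also in the epithelial list and counts toward both sums. The part of these other cells in the results below was not tested. Brca2 itself was low in the sorted cells, with 5 to 21 raw counts a library, and this does not check the hairpin, which was in the cancer cells.

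The prolyl 4-hydroxylase alpha subunits carry the catalytic site and pair with P4hb. P4ha2 (chr11:54100924-54131668, GRCm38.p6), the alpha(II) subunit, had normalized counts of 666, 1130 and 520 in shControl and 742, 740, 606 and 653 in shBrca2. The shBrca2 libraries all lay inside the control range, which shControl replicate 2 widened. The means were 772 ± 318 (SD, n = 3) and 685 ± 67.2 (SD, n = 4), a log2 fold change of -0.17 ± 0.25 (SE, adjusted p = 0.82). P4ha1 (chr10:59323197-59373304), the alpha(I) subunit, had 53.0, 101 and 68.1 in shControl and 96.4, 84.5, 65.6 and 42.7 in shBrca2. Neither group was set apart, and the log2 fold change was -0.01 ± 0.33 (SE, adjusted p = 0.97), with a 95% interval of the fold from 0.635 to 1.54. Its raw counts were 38 to 145 a library, and this interval was the widest of the 10 on the log2 scale. P4ha3 (chr7:100285489-100319701), the alpha(III) subunit, had 175, 209 and 98.3 in shControl and 180, 148, 133 and 201 in shBrca2. The shBrca2 libraries again lay within the controls, at a log2 fold change of 0.05 ± 0.27 (SE, adjusted p = 0.95).

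None of the 3 lysyl hydroxylases was called, and their controls differed among themselves by more than the group means did. Plod2 (chr9:92539636-92608428), which hydroxylates the telopeptide lysines that form the most stable crosslinks, had 1593, 1869 and 1414 in shControl and 1405, 1672, 1136 and 1291 in shBrca2. Of the shBrca2 libraries, 3 of 4 lay below every control and replicate 2 lay among them. The means were 1625 ± 229 (SD, n = 3) and 1376 ± 226 (SD, n = 4), a log2 fold change of -0.24 ± 0.18 (SE, adjusted p = 0.56), with a 95% interval of the fold from 0.663 to 1.08. Plod1 (chr4:147909753-147936776), which acts on lysines of the helix, had 715, 1269 and 634 in shControl and 921, 924, 800 and 727 in shBrca2. Plod3 (chr5:136987019-136996646), which also has glycosyltransferase activity, had 991, 1846 and 1002 in shControl and 1348, 1458, 1062 and 1122 in shBrca2. For these genes 2 of 3 controls lay below every shBrca2 library and shControl replicate 2 lay above them all. The log2 fold changes were -0.05 ± 0.24 (SE, adjusted p = 0.95) for Plod1 and -0.03 ± 0.24 (SE, adjusted p = 0.96) for Plod3. Plod2 overlaps the long noncoding gene B430319G15Rik in the annotation, and Plod3 overlaps Znhit1 and Mir702, so reads of these loci may be shared.

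Among the lysyl oxidases, Loxl1 and Lox had estimates of opposite sign. Loxl1 (chr9:58287723-58313212), the oxidase known for its role in elastic fibers, had normalized counts of 4284, 5275 and 4648 in shControl and 3328, 4381, 2404 and 3120 in shBrca2. Its groups overlapped only through shBrca2 replicate 2, which exceeded the lowest control. The means were 4736 ± 502 (SD, n = 3) and 3308 ± 818 (SD, n = 4), a fold of 0.699 with a 95% interval from 0.527 to 0.928. By DESeq2 this was a log2 fold change of -0.52 ± 0.21 (SE), which missed the call at an adjusted p of 0.12. Without shBrca2 replicate 2, the deepest library, the log2 fold change stood at -0.68 with an adjusted p of 0.0071, the only setting of 16 in which any of the 10 genes was called. Over those settings the adjusted p of Loxl1 ran from 0.0071 to 0.45.

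Lox, the founding member of the family, on chromosome 18, had 1867, 1972 and 1359 normalized counts in shControl and 2332, 3027, 1119 and 2113 in shBrca2. Of the shBrca2 libraries, 3 of 4 lay above every control, and replicate 3, the shallowest library, lay below them all. The means were 1733 ± 328 (SD, n = 3) and 2148 ± 789 (SD, n = 4), a log2 fold change of 0.31 ± 0.29 (SE, adjusted p = 0.66), with a 95% interval of the fold from 0.839 to 1.83. The estimate depended on single libraries: it was 0.52 (adjusted p = 0.13 by DESeq2) without shBrca2 replicate 3, 0.10 (adjusted p = 0.95) without shBrca2 replicate 2 and 0.16 (adjusted p = 0.94) without shControl replicate 4. Loxl2 (chr14:69608692-69695834), an oxidase active on the basement membrane collagen IV, had 1299, 1771 and 912 in shControl and 1158, 1404, 1176 and 1042 in shBrca2. All shBrca2 libraries lay inside the control range, at a log2 fold change of -0.15 ± 0.23 (SE, adjusted p = 0.83). Loxl2 overlaps the noncoding genes Gm27177 and Mir6950 in the annotation.

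Serpinh1 (chr7:99345375-99353239) had 10852, 14223 and 10011 normalized counts in shControl and 9673, 10144, 9421 and 9379 in shBrca2. The shBrca2 libraries were tightly grouped, and only replicate 2 exceeded the lowest control. The means were 11696 ± 2229 (SD, n = 3) and 9654 ± 351 (SD, n = 4), a log2 fold change of -0.28 ± 0.16 (SE, adjusted p = 0.37) with a 95% interval of the fold from 0.665 to 1.02. Without shControl replicate 2 the log2 fold change was -0.11 (adjusted p = 0.79 by DESeq2).

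**Figure D2:**
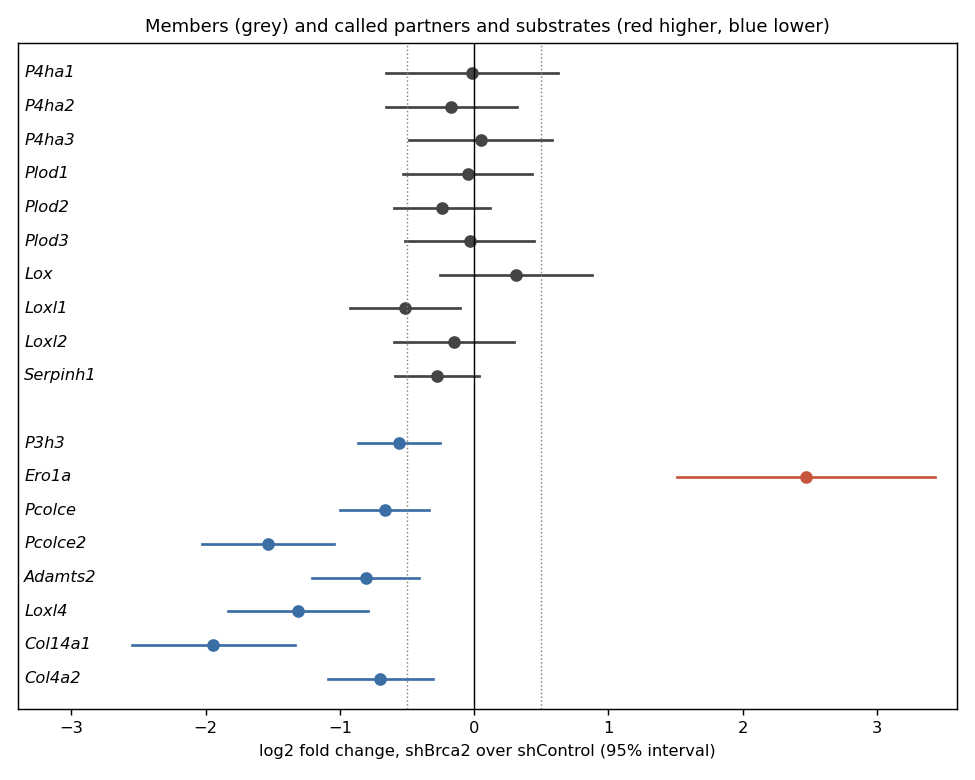
Log2 fold change (shBrca2 over shControl, dots) with 95% intervals (lines) of the 10 collagen genes in grey and of the called partners and substrates in red (higher) or blue (lower); dotted lines mark the fold threshold of 0.5. The intervals of 9 of 10 collagen genes cross 0, that of Loxl1 runs from -0.93 to -0.11, and Ero1a stands far to the right at 2.47.

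A common feature of the 10 genes was their height in shControl replicate 2. It was the highest of the 7 libraries for 9 of 10 (all but Lox), while it was the highest for 16% of all genes tested. There the 10 genes lay on average 0.47 above their own mean over the libraries on the log2 scale, a factor of 1.38. The same library was the highest for 9 of 16 collagen chains and elastin, 8 of 12 ER chaperones and 8 of 14 partners of the hydroxylases, and for 0 of 20 oxygen sensing genes. It was also the highest for 4 of 10 CAF markers, Col1a1, Col1a2 and Col3a1 among them. It was low in Dcn, with 11244 normalized counts beside 24418 and 26065 in the other controls, and in Lum, with 301 beside 882 and 824. Without it 7 of 10 estimates were positive in place of 2, with log2 fold changes of 0.27 for P4ha1, 0.21 for P4ha2, 0.28 for P4ha3, 0.32 for Plod1, 0.33 for Plod3, 0.41 for Lox and 0.11 for Loxl2. The estimates of Plod2, Loxl1 and Serpinh1 stayed negative, at -0.13, -0.43 and -0.11, and 0 of 10 were called by DESeq2. Leaving out a control picked for being high in these genes had to raise their estimates. The direction of this shift was therefore fixed in advance. The range among the controls alone, 1.23-fold to 2.17-fold, was wider than the fold between the group means for 9 of 10 genes, the exception being Loxl1.

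**Figure D3:**
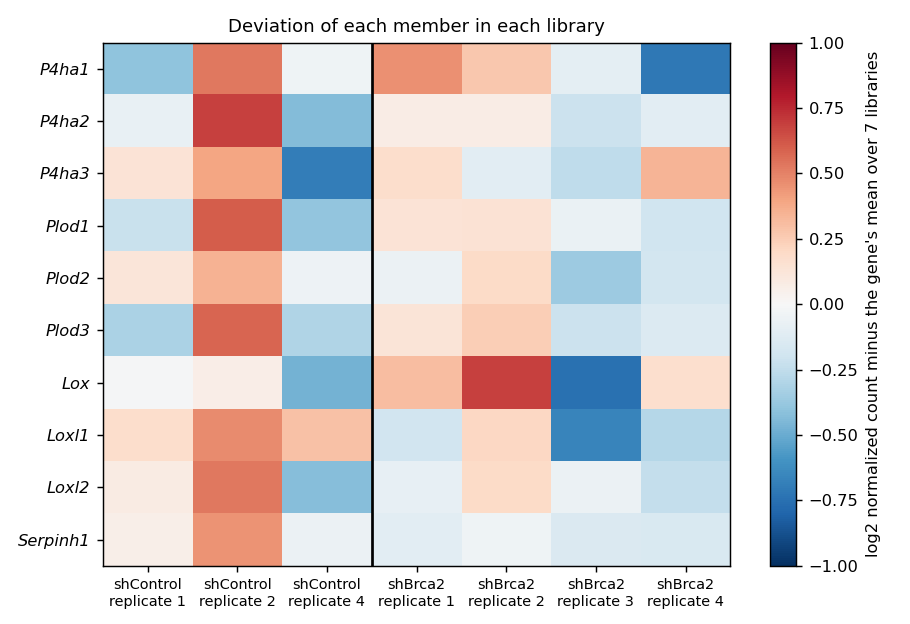
Each cell shows a gene's log2 normalized count in a library minus its mean over the 7 libraries (red above, blue below); the black line divides shControl from shBrca2. The column of shControl replicate 2 is red throughout, with a mean of 0.47, and that of shBrca2 replicate 3 is blue throughout, with a mean of -0.28.

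The make-up of each enzyme family was compared within libraries from raw counts, which needs no scaling between libraries. These are 3'-end counts, not divided by transcript length, so shares are compared between groups and not between genes. Lox made up 25.1%, 21.9% and 19.6% of the summed Lox, Loxl1 and Loxl2 counts in shControl and 34.2%, 34.3%, 23.8% and 33.7% in shBrca2. Of the shBrca2 libraries, 3 of 4 were above every control and replicate 3 was among them, its 95% Wilson interval of 22.3% to 25.5% covering counting error only. The means of 22.2% ± 2.72 (SD, n = 3) and 31.5% ± 5.14 (SD, n = 4) differed by 9.32 percentage points (two-sided exact permutation test, p = 0.114, or 0.571 adjusted over the 6 quantities; the smallest p of the design is 0.057). Without shBrca2 replicate 3 the difference was 11.9 points (exact permutation p = 0.10, the smallest that 3 against 3 can give), and with each of the other libraries left out in turn it was 8.04 to 10.8 points (exact permutation p from 0.133 to 0.267). The Loxl1 share was looked at after its values were seen and was not tested: it was 57.5%, 58.5% and 67.2% in shControl and 48.8%, 49.7%, 51.2% and 49.7% in shBrca2, without overlap.

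As for the Lox share, the groups overlapped in each of the other quantities tested. Plod2 made up 44.1% ± 5.76 (SD, n = 3) of lysyl hydroxylase counts in shControl and 39.6% ± 1.80 (SD, n = 4) in shBrca2 (exact permutation p = 0.286), with shControl replicate 2 the lowest control at 37.5%. The difference of -4.43 percentage points was -7.71 without shControl replicate 2 (exact permutation p = 0.133) and -2.31 without shControl replicate 1 (exact permutation p = 0.667). P4ha1 made up 7.62% ± 2.06 (SD, n = 3) and 7.77% ± 2.08 (SD, n = 4) of prolyl 4-hydroxylase alpha counts (exact permutation p = 0.971). Set against the summed counts of Col1a1, Col1a2 and Col3a1, the log2 ratio of the 6 hydroxylases was -4.49 ± 0.18 (SD, n = 3) in shControl and -4.34 ± 0.11 (SD, n = 4) in shBrca2 (exact permutation p = 0.286). The same ratio was -3.76 ± 0.06 (SD, n = 3) and -3.77 ± 0.26 (SD, n = 4) for the 3 lysyl oxidases (exact permutation p = 1) and -3.18 ± 0.04 (SD, n = 3) and -3.19 ± 0.09 (SD, n = 4) for Serpinh1 (exact permutation p = 0.914). Across the 7 libraries the Serpinh1 ratio stayed between -3.32 and -3.12. The choice of collagens mattered: against Col1a1 alone the groups differed by -0.27 for Serpinh1 in place of -0.01.

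**Figure D4:**
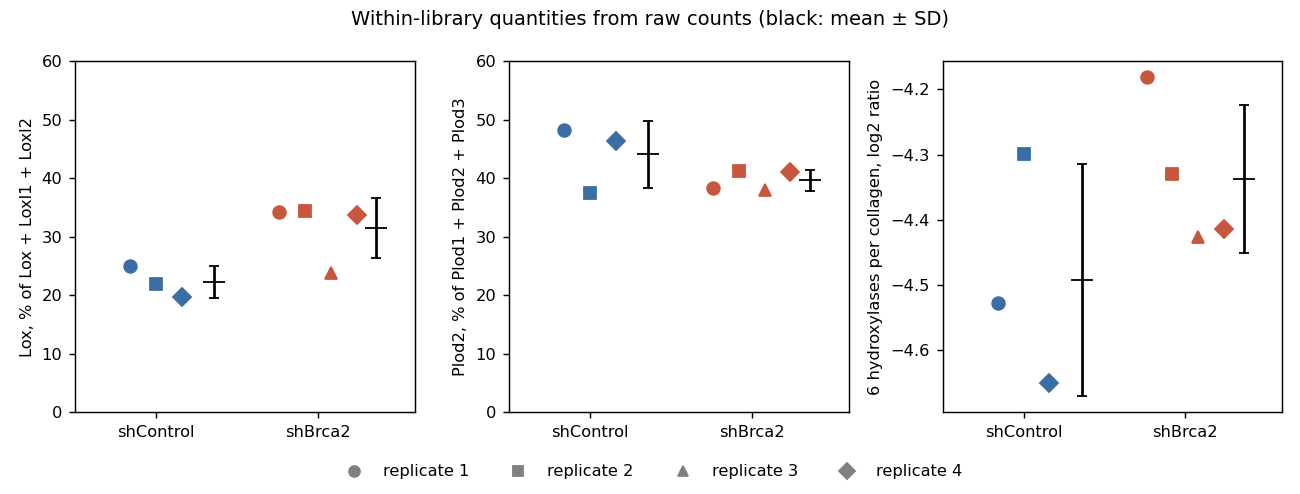
Within-library quantities from raw counts, by library (symbols) with mean ± SD (black): the Lox share of lysyl oxidase counts and the Plod2 share of lysyl hydroxylase counts in percent (axes from 0), and the log2 ratio of hydroxylase to fibrillar collagen counts (axis not from 0). The Lox share is 33.7% to 34.3% in 3 of 4 shBrca2 libraries and 19.6% to 25.1% in the controls.

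Most proteins that work beside the hydroxylases in the ER were not called, and 9.04% of all genes tested were called. Of 14 partners in the table (prolyl 3-hydroxylases, isomerases, collagen glycosyltransferase, P4hb and regulators), 1 was called higher and 1 lower, and the median log2 fold change was -0.17. Ero1a, the oxidase that recharges protein disulfide isomerases, is listed under its older symbol Ero1l, and rose from normalized counts of 5.98, 7.59 and 6.81 to 38.7, 55.4, 20.7 and 30.5. Every shBrca2 library was above every control, at a log2 fold change of 2.47 ± 0.49 (SE, adjusted p = 2.8e-05). P3h3, of the prolyl 3-hydroxylase family, fell from 786 ± 44.1 (SD, n = 3) to 536 ± 71.2 (SD, n = 4), a log2 fold change of -0.56 ± 0.16 (SE, adjusted p = 0.0092). That estimate stood near the fold threshold, and the call was lost with total count scaling and when shControl replicate 1, shBrca2 replicate 1 or shBrca2 replicate 4 was left out. The most abundant partners not called were P4hb, the beta subunit of prolyl 4-hydroxylase, with a log2 fold change of -0.11 ± 0.16 (SE, adjusted p = 0.81), and Ppib, a cyclophilin, with -0.25 ± 0.13 (SE, adjusted p = 0.27). Without shControl replicate 2, 5 partners were called in place of 2, the added genes being P3h4 (0.80), Fkbp10 (0.61) and Creb3l1 (0.79, log2 fold changes). Without shBrca2 replicate 2, Fkbp9 was called lower, at -0.65.

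In a mixed list of procollagen processing, its enhancers and other crosslinking, several genes were called lower. Of 11 genes in the table, 4 were called lower and 0 higher, with a median log2 fold change of -0.36. The groups did not overlap for 6 of 11, among them Tll1, which was higher in shBrca2 on few counts. Over all genes tested, 5.27% were called lower and 17.1% did not overlap. The list was chosen with earlier results of these data known, so its shares are not independent evidence. Loxl4, the lysyl oxidase family member outside the 10 genes that was called, had 133, 121 and 132 normalized counts in shControl and 51.6, 71.1, 48.4 and 33.5 in shBrca2. No shBrca2 library came near the controls, and the log2 fold change was -1.31 ± 0.27 (SE, adjusted p = 6.4e-05). Adamts2, the procollagen N-proteinase, fell from 821 ± 41.6 (SD, n = 3) to 467 ± 114 (SD, n = 4), a log2 fold change of -0.81 ± 0.20 (SE, adjusted p = 0.0026). Enhancers of the C-proteinase also fell, Pcolce by 0.66 on the log2 scale (adjusted p = 0.0027) and Pcolce2 by 1.53 (adjusted p = 2.6e-07). Bmp1, the C-proteinase itself, was at 0.03 ± 0.20 (SE, adjusted p = 0.95), and Tgm2, a transglutaminase that forms other crosslinks, at -0.48 ± 0.25 (SE, adjusted p = 0.30), neither being called. Without shControl replicate 1, Tgm2 was called at -0.70. In the other direction Pxdn, at 0.43 with all libraries, was called at 0.60 without shControl replicate 2. Tll1 had 0 counts in the controls and 15 in all in shBrca2, too few for a call.

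Of the collagens on which these enzymes act, a few were called. Of 16 collagen chains and elastin, 2 were called lower and 0 higher, with a median log2 fold change of -0.05. Col14a1, a fibril-associated collagen, had 1936, 1259 and 1366 normalized counts in shControl and 275, 652, 401 and 253 in shBrca2, a log2 fold change of -1.94 ± 0.31 (SE, adjusted p = 1.7e-07). Col4a2, a basement membrane chain, fell by 0.70 on the log2 scale (adjusted p = 0.011), from 4508 ± 881 (SD, n = 3) to 2776 ± 506 (SD, n = 4). Of the most abundant chains, Col3a1 was at -0.44 ± 0.18 (SE, adjusted p = 0.14) and Col1a2 at -0.09 ± 0.15 (SE, adjusted p = 0.86). Col3a1 was called at -0.59 when shBrca2 replicate 2 was left out, and Col4a1 at -0.70 when shControl replicate 4 was.

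The 8 genes of procollagen export from the ER had a median log2 fold change of 0.12. Of these, 0 were called by DESeq2 or edgeR, with 0 at an unadjusted p under 0.05 by either. By DESeq2, 9.04% of all genes tested were called and 17.7% had an unadjusted p under 0.05. Sec13 was at 0.12 ± 0.23 (SE, adjusted p = 0.88) and Sec24d at -0.01 ± 0.16 (SE, adjusted p = 0.97). A list of 12 genes held those for cofactor and proline supply and P4htm, a relative of the prolyl hydroxylases. Of these 12, 0 were called by either tool, with 1 at an unadjusted p under 0.05 by each, and the median was -0.02. Atox1, a copper chaperone, was at -0.08 ± 0.19 (SE, adjusted p = 0.90) and Idh2, a source of 2-oxoglutarate, at 0.38 ± 0.20 (SE, adjusted p = 0.33), which was called at 0.55 without shControl replicate 2. For comparison with Serpinh1, 0 of 12 general ER chaperones were called by either tool, with 2 at an unadjusted p under 0.05 by DESeq2 and 1 by edgeR. Their median was -0.25, close in size to the -0.28 of Serpinh1, with Calr at -0.27 ± 0.19 (SE, adjusted p = 0.50) and Pdia6 at -0.33 ± 0.16 (SE, adjusted p = 0.26).

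Oxygen sensing genes and HIF targets outside collagen are given beside the collagen hydroxylases, which need oxygen too. Of 20 such genes, 10 were called higher and 0 lower, 19 had a positive log2 fold change, and the median was 0.70. Of all genes tested 3.77% were called higher, and the 6 hydroxylase genes had estimates from -0.24 to 0.05. By edgeR 9 genes of the list were called, and with the replicate block 7. Ndrg1 and Mxi1 were each called in 9 of 16 alternatives. This list was written with hypoxia results of these libraries already known, so its direction is not independent evidence. Egln3, the oxygen-sensing prolyl hydroxylase that marks HIF for decay, had 30.8, 101 and 81.7 normalized counts in shControl and 541, 338, 504 and 418 in shBrca2. Its log2 fold change was 2.67 ± 0.33 (SE, adjusted p = 5.3e-11), and every shBrca2 library lay above every control. Car9, a carbonic anhydrase induced by HIF, rose from 6.83, 32.9 and 26.3 to 213, 177, 166 and 220, a log2 fold change of 3.18 ± 0.35 (SE, adjusted p = 4.7e-14), and Ero1a, described above, was the next largest. The most abundant glycolytic genes of the list were not called, Ldha at 0.44 ± 0.18 (SE, adjusted p = 0.14) and Aldoa at 0.47 ± 0.18 (SE, adjusted p = 0.091), the latter missing the fold threshold. Without shControl replicate 2 both were called, Ldha at 0.65 (adjusted p = 0.0024 by DESeq2) and Aldoa at 0.64 (adjusted p = 0.0064). The epithelial marker sums that moved with this list stand above, and their part in it was not tested.

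**Figure D5:**
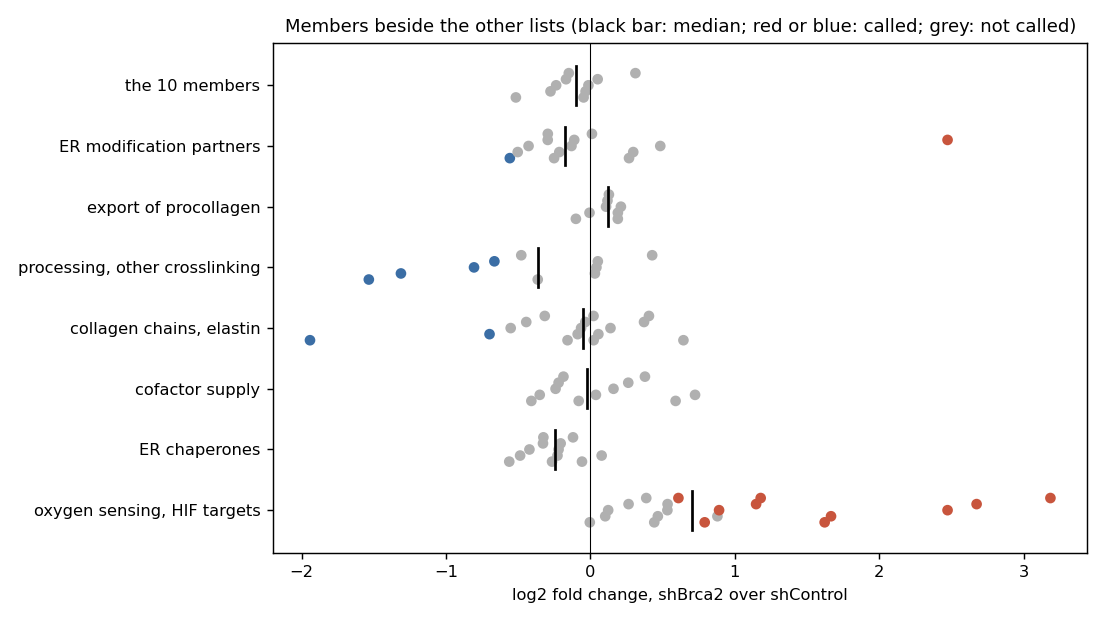
Log2 fold change (shBrca2 over shControl) of each gene in the 10 collagen genes and 7 related lists, with called genes in red (higher) or blue (lower), others in grey, and a black bar at each list's median. Tll1, with 0 counts in the controls, is not drawn but counts toward its median of -0.36; the oxygen sensing list alone has its median to the right of 0.5, at 0.70.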

How the data were processed

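RNA of sorted CAFs was sequenced as 7 libraries, and the authors deposited raw counts per gene symbol, whole numbers that were not normalized. The submitters' processing notes name bcl2fastq, cutadapt, STAR 2.4.2a, HTSeq, DESeq2 and mm10. The annotation, the strand setting and any collapsing of barcodes were not given in the sources used here, so counts may include PCR copies. Groups were taken from the labels. DESeq2 1.42.0 (R 4.3.3) was run on all 7 libraries with median-of-ratios size factors, a likelihood ratio test of group and no covariate; 3 of 12771 genes received no p. Intervals are Wald 95% intervals of unshrunken fold changes. Shares and ratios were compared by exact permutation over 35 divisions. edgeR 4.0.16, other scalings, a count filter (at least 10 counts in 3 libraries), a replicate block and leaving out each library were tried as 16 alternatives. Positions and promoters came from RefSeq on GRCm38.p6, the assembly of mm10. The code was tested on simulated data.

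The 10 genes and the lists were chosen with earlier results of these data known. Text names all 10; of each list it names the called genes (the 3 largest in each direction where over 6 were called) and the 2 most abundant genes not called. Some, not all, of the genes whose call changed when a library was left out were named, after their values were seen. Totals ran from 1898679 to 5990579 counts per library. Every pair of libraries differed by more than sampling noise (lowest mean chi-square per gene 3.01).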

Additional observations from a re-analysis of the deposited data

Results flagged for a closer look

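The Lox share of lysyl oxidase counts was flagged in the shBrca2 group because 1 library lay far from the rest: replicate 3 held 23.8%, while the other libraries held 33.7% to 34.3%. The gap between replicate 3 and its nearest neighbour was 0.936 of the group's whole range, above Dixon's 95% critical value for a group of 4. It was the only 1 of 16 such groups of 4 that passed this limit, and chance alone passes about 5 in 100. Replicate 3 was also the shallowest library, with 1898679 counts, and its part in the low Lox share was not tested.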

How the results depend on the processing

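Over 16 alternatives, a collagen gene was called only once, Loxl1 without shBrca2 replicate 2. With each library left out in turn, the count of the 10 genes called lower ran from 0 to 1, that of all genes called higher from 261 to 610 and lower from 354 to 695, that of hydroxylase partners called from 1 to 5, of cofactor genes from 0 to 1 and of ER chaperones from 0 to 1. The lowest counts of all genes came without shBrca2 replicate 1. Leaving out shControl replicate 1 gave 264 higher and 366 lower, leaving out shBrca2 replicate 4 gave 290 and 372, and leaving out shControl replicate 4 gave 386 and 418. Log2 fold changes crossed 0 in these runs, from -0.21 to 0.27 for P4ha1, -0.39 to 0.21 for P4ha2, -0.21 to 0.28 for P4ha3, -0.23 to 0.32 for Plod1, -0.19 to 0.33 for Plod3 and -0.36 to 0.11 for Loxl2. The hydroxylases per collagen differed by 0.076 to 0.25 in these runs. Those that crossed 0 were the differences in the P4ha1 share (-0.70 to 1.29 percentage points), the lysyl oxidases per collagen (-0.090 to 0.11) and Serpinh1 per collagen (-0.038 to 0.028). Total count scaling moved the median of all genes to 0.12 and the share of calls that were higher from 41.7% to 58.5%, and gave 0.10 for P4ha1, 0.071 for Plod1 and 0.084 for Plod3. Against Col1a1 alone the hydroxylase ratio differed by -0.10 (exact permutation p = 0.629). The lysyl oxidase ratio then differed by -0.26 and the Serpinh1 ratio by -0.27 (exact permutation p = 0.286 for each). The cause of these changes was not tested.

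Same-numbered libraries did not deviate together (r = -0.13, -0.17 and -0.18 over 6735 genes), so the numbers were not taken to pair samples. With the replicate block on replicates 1, 2 and 4, 242 genes were called higher and 322 lower, 1 collagen chain was called in place of 2, the calls of Pcolce (adjusted p = 0.12 by DESeq2) and Col4a2 (0.17) were lost, and Plod1 stood at 0.033, Plod3 at 0.088 and the lysyl oxidases per collagen at 0.11. The same libraries without the block gave 0.025 for P4ha1, 0.034 for Plod3 and 1 cofactor gene called.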
